A study of Drosophila melanogaster with 18 samples.

Results

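Vertebrate ZKSCAN3, a SCAN and KRAB zinc finger transcription factor, was placed in Drosophila fat body cells depleted of M1BP, and the transcripts of this rescue genotype were set directly against those of the knockdown alone. The comparison used 4 of the 18 samples in the series, namely 2 RNA-seq libraries labelled M1BP RNAi + ZKSCAN3 (cgGal4>M1BP-RNAi;HA::ZKSCAN3) and 2 labelled M1BP RNAi (cgGal4>M1BP-RNAi). Both genotypes therefore carried the cgGal4 driver and the M1BP hairpin, and only the first carried the ZKSCAN3 transgene. The same 8-library fit held cgGal4>WT (WT) and cgGal4>HA::ZKSCAN3 (ZKSCAN3), with 2 libraries each. All 8 libraries came from the fat body of male larvae in the feeding part of the last larval instar (L3F), dissected free of gonads, with the fat bodies of several animals pooled in each RNA. cgGal4 drives in the fat body and is also known to drive in blood cells. No genotype carried the M1BP hairpin with a neutral second UAS transgene, so the effect of ZKSCAN3 and that of a second UAS transgene cannot be told apart. The labels only number the replicates, which the study describes as biological, and the p-values measure the spread between 2 libraries of each genotype.

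The larval fat body stores fat and glycogen, secretes the larval serum proteins and, as the humoral immune organ of the fly, makes antimicrobial peptides under the Toll and Imd pathways. M1BP binds Motif 1, an element found at many promoters of genes used in all cells, and represses autophagy in this tissue together with Hox proteins. ZKSCAN3 is known as a repressor of autophagy in mammalian cells.

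The libraries held 53462739 to 76798943 counts, and the 10 most abundant genes took 34.7% to 52.7% of them. Levels are CPM, the counts relative to library size after scaling by TMM factors, and folds are log2 values with their SE from edgeR's quasi-likelihood test. The lowest level that 3 counts give was 0.0305 to 0.0590 CPM, depending on the library. Replicate 1 of M1BP RNAi stood apart in testis markers, at a summed 110 CPM against 6.27 to 23.8 in the other 7 libraries. Where a list median printed here moved without that library, both values are given. The labels could be checked on M1BP itself, at 15.7 and 16.98 CPM in WT, against 6.57 and 7.03 under M1BP RNAi, 13.2 and 15.1 for ZKSCAN3 alone and 8.25 and 8.53 for M1BP RNAi + ZKSCAN3. Both knockdown genotypes lay below both others, and M1BP did not pass the test between the knockdown with and without ZKSCAN3 (log2 0.30 ± 0.13, edgeR adjusted p = 0.291). The ZKSCAN3 transcript is not among the fly genes counted, so its level was not analysed here. The eye colour gene w, which marks many transgenes, read 296 and 281 CPM in M1BP RNAi and 314 and 644 in M1BP RNAi + ZKSCAN3 (log2 0.73 ± 0.56, edgeR adjusted p = 0.456). The body colour gene y read 3.10 and 3.60 CPM in M1BP RNAi and 0.779 and 1.26 in M1BP RNAi + ZKSCAN3, with no count in either WT library, and it too missed the threshold (log2 -1.71 ± 0.49, edgeR adjusted p = 0.214). The gene pair at the site used by some hairpin transgenes stood at 3.74 and 3.59 CPM in M1BP RNAi against 2.25 and 2.72 with ZKSCAN3 for tio, and at 3.27 and 4.22 against 4.26 and 5.04 for tsh.

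Of 11723 genes tested, 13 rose (0.111% of genes) and 20 fell (0.171%) when ZKSCAN3 was added to the knockdown, at an adjusted p under 0.05 in edgeR. The median log2 fold change of all genes was -0.08, and 43.8% of genes had a positive value. An unadjusted p under 0.05 was reached by 1051 genes in the higher direction (8.97%) and 1053 in the lower (8.98%). Both libraries with ZKSCAN3 lay above both without it for 2671 genes (22.8%) and below for 2935 (25%). DESeq2 on the same libraries called 627 higher (5.35%) and 513 lower (4.38%), and all 33 genes called by edgeR were among them. The count depended on single libraries: edgeR called 1 gene higher and 0 lower without replicate 2 of M1BP RNAi + ZKSCAN3, and 197 and 115 without its replicate 1. Without replicate 1 of M1BP RNAi it called 1 and 4, without its replicate 2 it called 1 and 5, and without either WT library it called 3 and 7. With only the 4 libraries compared it called 0 and 0, with 1339 genes at an unadjusted p under 0.05 where DESeq2 called 325 and 225. Each of the 33 genes kept its direction in the 14 refits run, those of the other settings included. In each gene the compared groups did not overlap, so rescaling or dropping 1 library could hardly turn a direction.

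**Figure D1:**
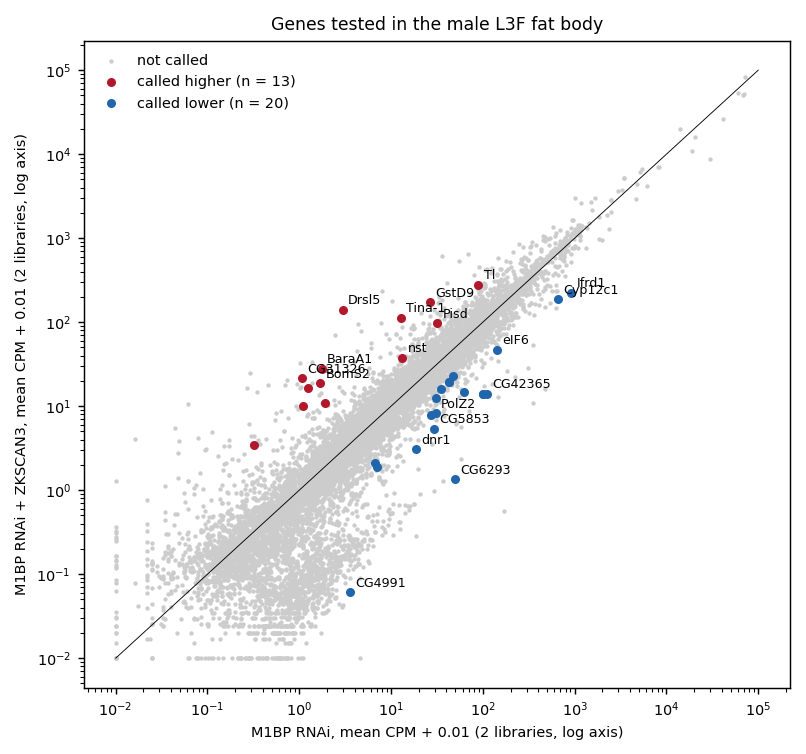
Mean CPM plus 0.01 of each of the 11723 genes tested in M1BP RNAi (x axis) and in M1BP RNAi + ZKSCAN3 (y axis), 2 libraries each, both on log axes. Red and blue points are the 13 genes called higher and the 20 called lower in edgeR, and the line marks equal levels.

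Of the 13 genes called higher, 4 encode secreted immune peptides, and one of these had the largest fold. Drsl5, a member of the Drosomycin family of secreted peptides on 3L, was at 3.04 and 2.86 CPM in M1BP RNAi and at 110 and 172 in M1BP RNAi + ZKSCAN3. WT stood at 0.531 and 0.471 CPM and ZKSCAN3 alone at 0.460 and 0.404. The groups did not overlap, and the rescue genotype lay far above every other (log2 5.58 ± 0.27, edgeR adjusted p = 0.00543). Drsl5 was the 1 gene still called when replicate 2 of M1BP RNAi + ZKSCAN3 was left out.

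BomS2, a Bomanin, which are short peptides induced by Toll, rose from 1.94 and 1.43 CPM to 14.4 and 23.0 (log2 3.48 ± 0.33, edgeR adjusted p = 0.0219). Its ZKSCAN3 libraries read 0.0530 and 0.0961 CPM, or 3 and 5 counts, and its WT libraries 2 counts each. BaraA1, a Baramicin precursor cut into several antifungal peptides, rose from 1.74 and 1.76 CPM to 27.96 and 27.55 (log2 3.99 ± 0.27, edgeR adjusted p = 0.00890). BaraA2, its neighbour and near copy on 2R, rose from 1.26 and 1.19 to 16.9 and 16.2 (log2 3.76 ± 0.43, edgeR adjusted p = 0.0470). Reads of such copies may be split between them, and BaraA2 was named here because its span equals that of BaraA2 in the annotation used. For each of these peptide genes both M1BP RNAi libraries lay above both WT libraries, and both libraries with ZKSCAN3 lay above those again.

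Tl, the Toll receptor itself, behaved otherwise. It read 87.7 and 79.3 CPM in WT, 79.99 and 97.9 under M1BP RNAi, 80.2 and 70.6 for ZKSCAN3 alone and 241 and 316 for M1BP RNAi + ZKSCAN3. The first 3 genotypes overlapped and only the last stood apart from them (log2 1.65 ± 0.20 against M1BP RNAi, edgeR adjusted p = 0.0470). dnr1, an inhibitor of the caspase Dredd in the Imd pathway, moved the other way, from 21.3 and 16.03 CPM in M1BP RNAi to 3.01 and 3.11 (log2 -2.61 ± 0.18, edgeR adjusted p = 0.00894). Its WT level was 11.4 and 12.6 CPM, so the rescue genotype lay below both.

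Of 33 antimicrobial peptide genes listed, 10 fell under the filter on low counts. Some of the 23 tested, such as BomT3 with no count in either M1BP RNAi library, passed it only through the libraries of M1BP RNAi + ZKSCAN3, which raises the counts and the median that follow, and these are a description. In the 23 tested, 20 values were positive and the median was 2.39 against -0.08 over all genes. Without replicate 1 of M1BP RNAi that median was 2.75. Drsl5 and BomS2 passed the edgeR threshold and 15 members were higher at an unadjusted p under 0.05, none lower, against 8.97% and 8.98% of all genes. DESeq2 called 13 of the 23 higher. The summed level of the list was 11.4 and 13.4 CPM in WT, 75.5 and 41.8 under M1BP RNAi, 22.2 and 22.6 for ZKSCAN3 alone and 548 and 421 for M1BP RNAi + ZKSCAN3. By family, all 11 Bomanins tested had both ZKSCAN3-carrying knockdown libraries above both others, as 22.8% of all genes did. They summed to 137 and 177 CPM against 19.4 and 18.8. BomS3, the most abundant Bomanin, read 13.3 and 13.2 CPM in M1BP RNAi and 81.1 and 95.9 with ZKSCAN3 (log2 2.74 ± 0.73, edgeR adjusted p = 0.185). The attacins, cecropins, diptericins, drosocin, defensin and metchnikowin, which answer mainly or partly to Imd, summed to 2.80 and 3.69 CPM in M1BP RNAi, 9.53 and 6.63 with ZKSCAN3, 8.15 and 10.2 in WT and 12.9 and 16.7 in ZKSCAN3 alone. Of the 9 tested among them 6 were positive, with a median of 1.03, or 0.93 without replicate 1 of M1BP RNAi. Both libraries lay above in 5 of the 9, and 3 were higher at an unadjusted p under 0.05. None was called by edgeR and 2 were called higher by DESeq2. Drs, the Drosomycin gene and a classic Toll reporter, was at 49.4 and 15.2 CPM in M1BP RNAi and 282 and 57.5 with ZKSCAN3, with replicates far apart in both groups (log2 2.40 ± 0.87, edgeR adjusted p = 0.259). The Daisho peptide genes Dso1 and Dso2 read 0.0908 and 0.0485 CPM and 0.121 and 0.0849 CPM in M1BP RNAi, against 3.93 and 4.30 and 3.19 and 6.59 with ZKSCAN3, with edgeR adjusted p = 0.0697 and 0.0844. BomS3, Drs, Dso1 and Dso2 were singled out after their values were seen.

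The signalling genes upstream of these peptides did not move as a body. In a list of 22 Toll pathway genes, from the recognition protein PGRP-SA to the NF-kappaB factors dl and Dif, edgeR called Tl alone. DESeq2 called 2 of them higher and 1 lower. Of their values 11 were positive and 11 were negative, and the median was -0.04. Without replicate 1 of M1BP RNAi that median was 0.08. SPE, the protease that cleaves the Toll ligand, was at 25.4 and 36.2 CPM in M1BP RNAi and 6.92 and 6.85 with ZKSCAN3 (log2 -2.16 ± 0.56, edgeR adjusted p = 0.180). PGRP-SD, a recognition protein, was at 44.6 and 62.1 against 99.6 and 84.7 (log2 0.79 ± 0.20, edgeR adjusted p = 0.177). SPE and PGRP-SD were also picked after their values were seen. Among 18 Imd pathway genes edgeR called dnr1 alone, DESeq2 called 2 lower and 0 higher, and the median was -0.01. Both pathway lists, and the split of the peptides by family, were put together after the values of Tl, dnr1 and the peptides had been seen. TotA, a Turandot gene of the humoral stress response, stood at 168 and 256 CPM in M1BP RNAi and 891 and 482 with ZKSCAN3 (log2 1.70 ± 0.50, edgeR adjusted p = 0.210), and TotC at 0.393 and 0.825 against 4.34 and 3.47 (log2 2.67 ± 0.60, edgeR adjusted p = 0.148).

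Among the other genes raised above all 3 other genotypes, CG31326, which has no described role in the annotation used, went from 0.787 and 1.31 CPM to 23.7 and 19.4 (log2 4.35 ± 0.38, edgeR adjusted p = 0.0181). GstD9, a glutathione transferase of the Delta class, went from 25.3 and 27.5 CPM to 165 and 183, with WT at 10.9 and 14.6 and ZKSCAN3 at 26.3 and 18.3 (log2 2.72 ± 0.24, edgeR adjusted p = 0.0182). It was the 1 gene called by edgeR of 33 glutathione transferases tested, whose median was 0.45. DESeq2 called 4 of these genes higher and 1 lower. Pisd, the enzyme that makes phosphatidylethanolamine from phosphatidylserine in mitochondria, went from 28.7 and 35.1 CPM to 100 and 94.2, with WT at 25.7 and 26.6 (log2 1.604 ± 0.19, edgeR adjusted p = 0.0470). CG10936 rose from 0.863 and 1.32 to 9.83 and 10.1 CPM and CG33462 from 0.287 and 0.328 to 4.08 and 2.83, both above the WT libraries at 1.71 and 2.40 and at 0.590 and 0.487. Both fell under the level set for naming and are given because they complete the 13.

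Other genes stood lower in M1BP RNAi than in WT and rose with ZKSCAN3. nst (nesthocker), which encodes the mutase that makes N-acetylglucosamine 1-phosphate for UDP-GlcNAc, read 44.6 and 45.9 CPM in WT, 13.04 and 13.2 under M1BP RNAi, 44.5 and 45.0 for ZKSCAN3 alone and 33.5 and 41.6 for M1BP RNAi + ZKSCAN3. The rescue genotype lay above the knockdown (log2 1.51 ± 0.14, edgeR adjusted p = 0.0208), and its fold against WT was log2 -0.27 ± 0.14 (edgeR adjusted p = 0.311). Tina-1 read 82.6 and 94.8 CPM in WT, 9.62 and 15.8 in M1BP RNAi and 78.5 and 148 with ZKSCAN3 (log2 3.16 ± 0.38, edgeR adjusted p = 0.0470). CAH7, a carbonic anhydrase, read 6.32 and 5.18, 2.24 and 1.58, and 9.16 and 12.9 in the same order (log2 2.53 ± 0.29, edgeR adjusted p = 0.0470). All of these had no overlap between the compared groups.

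nst was also the only called gene with the Motif 1 core, the letters GGTCACAC on either strand, within 250 bases before to 50 bases after its start. It has 2 copies, which are shown because they are the M1BP element at the start of a gene that differed between knockdown and rescue. Each is given 5′ to 3′ on its own strand in the Release 6 assembly (dm6), with the core in capitals.
Copy on the plus strand, chr3L:12530183-12530212, centred 26 bases before the start: tgcggccaagcGGTCACACtgcgctgaaac
Copy on the minus strand, chr3L:12530132-12530161, centred 25 bases after the start: cgcgaaacgacGGTCACACccgcctgcaca
Since nst is read from the minus strand, the copies point in opposite directions across its start. The core was present in the same window of 1078 of 11665 genes on the main arms (9.24%), of 1 of 13 genes called higher (7.69%) and of 0 of 20 called lower. The DRE letters TATCGATA, another promoter element of this class, which do not overlap the Motif 1 letters, were present at 10.9% of all genes and at 1 called gene, eIF6. A kB-type site was present at 2.37% of all genes and at none of the 33, the peptide genes included.

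For several genes that fell with ZKSCAN3, the M1BP RNAi libraries stood above the other genotypes. The fall and the distance of M1BP RNAi from WT are read from the same M1BP RNAi libraries, so levels are given side by side and no share of such genes is drawn. CG6293 was at 0.728 and 0.373 CPM in WT, 36.1 and 63.1 under M1BP RNAi, 0.672 and 0.442 for ZKSCAN3 alone and 1.42 and 1.25 for M1BP RNAi + ZKSCAN3, so that it fell to near the WT level (log2 -5.22 ± 0.44, edgeR adjusted p = 0.0167). PolZ2, which encodes subunit 2 of DNA polymerase zeta, was at 2.95 and 3.05, 29.6 and 31.7, 4.17 and 4.13, and 7.93 and 8.47 CPM in that order (log2 -1.90 ± 0.13, edgeR adjusted p = 0.00890). The replicates of PolZ2 agreed closely in each genotype and the rescue genotype remained above WT (log2 1.45 ± 0.13, edgeR adjusted p = 0.00700).

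Ifrd1, a relative of the mammalian interferon-related developmental regulator, fell from 833 and 989 CPM to 228 and 219, with WT at 155 and 198 (log2 -2.03 ± 0.18, edgeR adjusted p = 0.0196). Cyp12c1, a cytochrome P450 of the mitochondrial type, fell from 640 and 673 CPM to 213 and 164, with WT at 138 and 165 (log2 -1.80 ± 0.18, edgeR adjusted p = 0.0313). It was the 1 gene called by edgeR among 79 cytochrome P450 genes tested, whose median was 0.05. DESeq2 called 10 of these genes higher and 5 lower. CG12868 fell from 65.9 and 59.2 to 14.9 and 14.8 CPM, inside its WT range of 12.1 and 16.7 (log2 -2.08 ± 0.25, edgeR adjusted p = 0.0470).

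On 2R, the neighbours CG42362, CG42363 and CG42365 fell together. CG42365 went from 110 and 112 CPM to 14.3 and 13.8, with WT at 6.26 and 10.0 (log2 -2.98 ± 0.24, edgeR adjusted p = 0.0144). CG42362 and CG42363 hold the same counts in every library, since a read was counted for each gene it overlapped, and they went from 102 and 99.7 CPM to 15.03 and 12.6 (log2 -2.87 ± 0.17, edgeR adjusted p = 0.00647). They are 1 measurement, as are mkg-p and Tpt, a tRNA 2′-phosphotransferase gene, which share all their counts on 3L and fell from 45.1 and 39.4 CPM to 18.2 and 20.1.

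A further set fell part of the way and stayed above WT. eIF6, whose product keeps the large ribosomal subunit from joining the small one, went from 154 and 132 CPM to 41.8 and 52.3, with WT at 8.93 and 10.6 (log2 -1.604 ± 0.18, edgeR adjusted p = 0.0445). CG3448 went from 31.6 and 30.1 to 12.6 and 12.6, with WT at 3.05 and 2.94 (log2 -1.29 ± 0.12, edgeR adjusted p = 0.0196). Ada2b, a subunit of the SAGA histone acetyltransferase complex, went from 47.6 and 46.7 to 23.6 and 22.1, with WT at 13.8 and 14.9. CG8813 went from 7.29 and 6.65 to 2.05 and 1.70, with WT at 0.787 and 0.731. The fold against WT of eIF6 was still log2 2.27 ± 0.18 (edgeR adjusted p = 0.00684) and that of CG3448 log2 2.07 ± 0.12 (edgeR adjusted p = 0.00389). CaMKII, the calcium and calmodulin-dependent kinase, went from 34.6 and 35.8 to 17.3 and 14.6, and Pde1c, a cyclic nucleotide phosphodiesterase, from 7.01 and 6.47 to 2.25 and 1.97, both to or under their WT levels of 18.3 and 17.1 and of 3.48 and 2.86.

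Other genes fell below WT, as dnr1 did. CG5853 stood at 32.8 and 34.0 CPM in WT, 33.9 and 24.6 under M1BP RNAi, 15.96 and 17.7 for ZKSCAN3 alone and 5.83 and 4.92 for M1BP RNAi + ZKSCAN3 (log2 -2.45 ± 0.20, edgeR adjusted p = 0.0144). CG6839 went from 27.8 and 26.6 CPM to 7.70 and 7.92, with WT at 17.7 and 15.3 (log2 -1.80 ± 0.14, edgeR adjusted p = 0.0140). CG4991 held 1467 and 2820 counts in the WT libraries, 261 and 266 in M1BP RNAi, and 3 and 6 in M1BP RNAi + ZKSCAN3 (log2 -6.04 ± 0.44, edgeR adjusted p = 0.0108). At 3 counts its level in the last group is known only to its order of size. CG4991, CG8813, mkg-p, Tpt, Ada2b, CaMKII and Pde1c fell outside the rule for named genes and are given because they complete the 20.

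**Figure D2:**
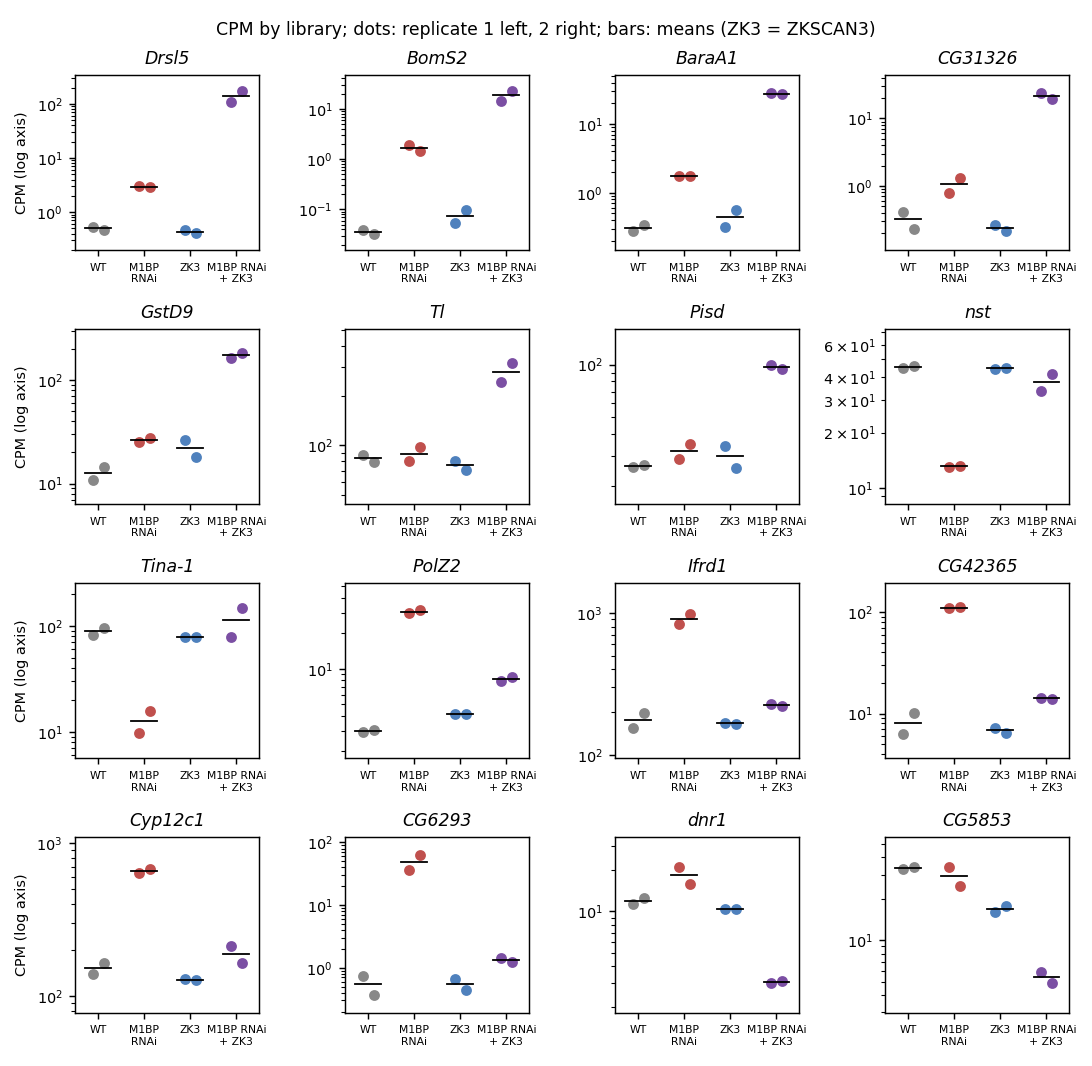
CPM of 16 called genes in each of the 8 libraries on log axes, with replicate 1 left and replicate 2 right of each genotype's place and a bar at the mean. Drsl5 to Pisd stand highest in M1BP RNAi + ZKSCAN3, PolZ2 to CG6293 stand highest in M1BP RNAi, and dnr1 and CG5853 stand lowest in M1BP RNAi + ZKSCAN3.

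ZKSCAN3 alone, set against WT, gave 0 genes at an adjusted p under 0.05 in edgeR and 384 at an unadjusted p under 0.05. The test of whether ZKSCAN3 made a different change in knockdown than in control fat body, an interaction that shares no library between its 2 differences, called 3 genes (0.0256% of those tested), with 2083 at an unadjusted p under 0.05. Drsl5 had an interaction of log2 5.79 ± 0.37 and PolZ2 of log2 -2.37 ± 0.18, both at an edgeR adjusted p = 0.0292. The count went from 0 without either WT library, without replicate 1 of M1BP RNAi or without replicate 1 of ZKSCAN3, to 199 without replicate 2 of M1BP RNAi. It was 12 without replicate 2 of ZKSCAN3, and 92 and 1 without replicates 1 and 2 of M1BP RNAi + ZKSCAN3. The third was Hsp26, a small heat shock protein gene, at 1.12 and 0.958 CPM in WT, 4.77 and 6.69 for ZKSCAN3 alone, 28.01 and 25.6 under M1BP RNAi and 10.1 and 10.4 for M1BP RNAi + ZKSCAN3. Hsp26 thus read higher with ZKSCAN3 in control fat body and lower in knockdown fat body (interaction log2 -3.85 ± 0.29, edgeR adjusted p = 0.0292). Neither part passed the threshold by itself. The fold in control was log2 2.46 ± 0.21 (edgeR adjusted p = 0.194) and that in knockdown log2 -1.39 ± 0.19 (edgeR adjusted p = 0.0682).

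The Atg genes, which encode the autophagy machinery and were the reason for the rescue experiment, gave no call. Of the 20 tested, 16 had a negative and 4 a positive log2 fold change, with a median of -0.20 against -0.08 over all genes, and DESeq2 called none either. The Atg median was -0.11 without replicate 1 of M1BP RNAi, and -0.39 and -0.10 without replicates 1 and 2 of M1BP RNAi + ZKSCAN3. The median of all genes in these fits was 0.03, -0.18 and -0.05, in that order. An unadjusted p under 0.05 was reached by 4 in the lower and 1 in the higher direction, against 8.98% and 8.97% of all genes. The next 5 genes are these, picked on that p. Atg8a, the ubiquitin-like protein of the autophagosome membrane, read 246 and 197 CPM in M1BP RNAi and 152 and 104 with ZKSCAN3, where WT had 135 and 139 (log2 -0.80 ± 0.27, edgeR adjusted p = 0.244). Atg18b, a phosphoinositide-binding member, read 76.4 and 62.0 against 42.8 and 15.3, where WT had 16.8 and 21.9 (log2 -1.25 ± 0.48, edgeR adjusted p = 0.264). Atg5 and Atg16, which act together in lipidation of Atg8a, read 12.1 and 12.9 against 10.2 and 8.77, and 11.98 and 12.01 against 9.31 and 9.24. Atg13, a subunit of the initiating kinase complex, was the 1 of them that rose. It read 15.5 and 15.8 in M1BP RNAi, 24.9 and 18.6 with ZKSCAN3, and 29.5 and 33.7 in WT (log2 0.47 ± 0.17, edgeR adjusted p = 0.257). In each of these 5 the groups did not overlap. Over the 20, both libraries with ZKSCAN3 lay above in 3 and below in 7, against 22.8% and 25% of all genes. Atg17 was higher in M1BP RNAi than in WT (log2 0.91 ± 0.20, edgeR adjusted p = 0.0474). It read 71.6 and 69.2 CPM in M1BP RNAi, 62.6 and 74.45 with ZKSCAN3, and 36.7 and 37.96 in WT, so the compared groups overlapped. A list of 13 macroautophagy genes that the study chose on the knockdown libraries, and which is for that reason not independent evidence of direction, had 11 negative values, a median of -0.33 and no call by edgeR or DESeq2, with 3 members lower at an unadjusted p under 0.05. Its median was -0.12 without replicate 1 of M1BP RNAi and -0.20 without replicate 2 of M1BP RNAi + ZKSCAN3.

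Several lists of housekeeping and metabolic genes had values mainly of 1 sign. Over all genes 43.8% of values were positive, 22.8% had both libraries above, and 8.97% were higher at an unadjusted p under 0.05. Complex I of the respiratory chain had 33 of 37 members positive, a median of 0.90, both libraries above in 31, and 21 members at an unadjusted p under 0.05, against 0 lower. None passed the edgeR threshold and DESeq2 called 9 higher. Without replicate 2 of M1BP RNAi + ZKSCAN3 the median of complex I was 0.63, that of glycolysis 0.53 and that of the mitochondrial ribosome 0.35. ND-75 and ND-39, its members with the highest levels, read 78.9 and 102 CPM and 83.7 and 109 CPM in M1BP RNAi, 146 and 192 and 159 and 232 with ZKSCAN3, and 207 and 233 and 206 and 232 in WT. The edgeR adjusted p was 0.229 for ND-75 and 0.238 for ND-39. Of 73 mitochondrial ribosomal proteins, 72 were positive with a median of 0.72 and 18 at an unadjusted p under 0.05, and DESeq2 called 6. mRpL28 read 34.9 and 34.3 CPM in M1BP RNAi and 54.4 and 88.1 with ZKSCAN3 (log2 1.04 ± 0.27, edgeR adjusted p = 0.179), and mRpS9 read 22 and 25.9 against 33.2 and 37.4 (log2 0.56 ± 0.17, edgeR adjusted p = 0.214). The 90 cytoplasmic ribosomal proteins tested had 84 positive values at a median of 0.21.

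Glycolysis had 17 of 18 members positive and a median of 0.88. At an unadjusted p under 0.05, 9 were higher (8.97% of all genes), none of them called by edgeR and 8 by DESeq2. Pgm1, phosphoglucomutase, read 135 and 182 CPM in M1BP RNAi, 356 and 512 with ZKSCAN3, and 321 and 325 in WT (log2 1.45 ± 0.24, edgeR adjusted p = 0.0798). Ldh, lactate dehydrogenase, read 4.15 and 5.16 in M1BP RNAi, 18.8 and 138 with ZKSCAN3, and 2.44 and 1.61 in WT (log2 4.07 ± 1.04, edgeR adjusted p = 0.179). Both were picked after their values were seen. The list's members with the highest levels, Gapdh1 at log2 0.06 ± 0.21 and the gluconeogenic Pepck1 at -0.11 ± 0.47, lay near 0. In fat synthesis and breakdown 13 values were positive and 13 negative. FASN1, fatty acid synthase, read 740 and 1274 CPM in M1BP RNAi, 2811 and 3268 with ZKSCAN3, and 5508 and 6736 in WT (log2 1.59 ± 0.44, edgeR adjusted p = 0.190).

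Negative values prevailed among 45 proteasome subunits, with 41 negative and a median of -0.25, and among 29 Rab GTPases, with 25 negative and a median of -0.29. Without replicate 2 of M1BP RNAi + ZKSCAN3 the Rab median was -0.08, against -0.05 over all genes in the same fit. No member of either was called by edgeR. At an unadjusted p under 0.05, 4 proteasome subunits were lower, and 3 Rab genes were lower and 1 higher. Over all genes 8.98% were lower and 8.97% higher. DESeq2 called 1 proteasome subunit lower and 1 Rab gene higher.

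**Figure D3:**
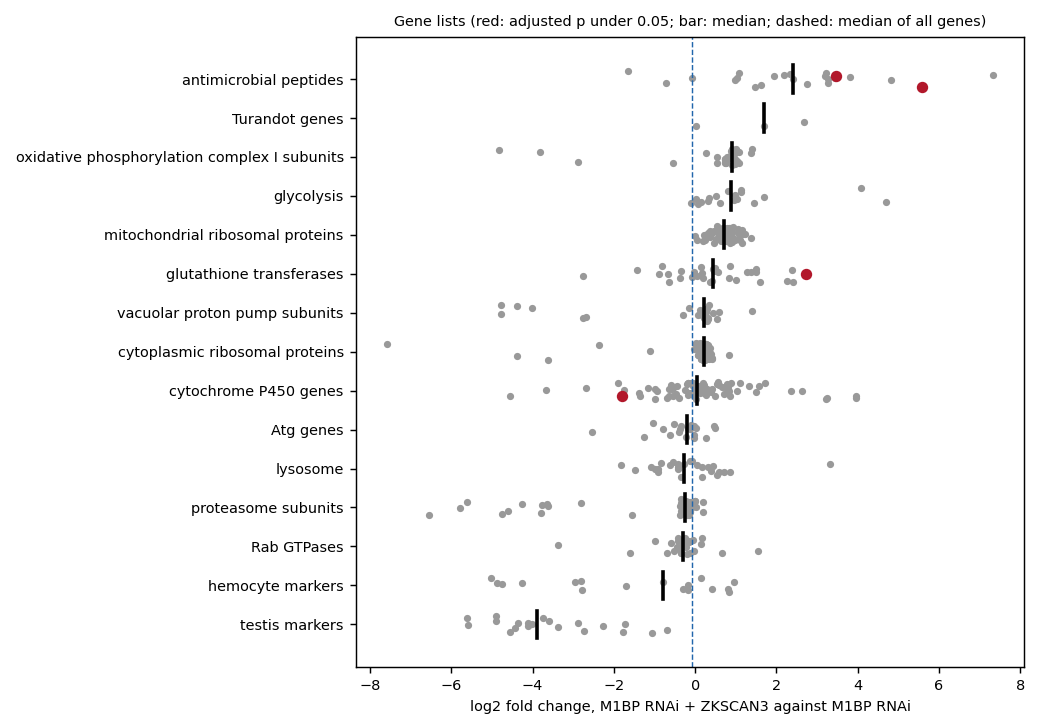
log2 fold change of M1BP RNAi + ZKSCAN3 against M1BP RNAi for each tested member (point) of 15 gene lists, with the list median (bar) and the median of all genes, -0.08 (dashed line). Red points passed an adjusted p under 0.05 in edgeR, and among the lists drawn they are Drsl5, BomS2, GstD9 and Cyp12c1.

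The tissue was checked on marker genes. The serum proteins and other fat body products summed to 192000 to 444000 CPM in every library, and the larval serum protein Lsp1beta alone read 59440 and 82950 CPM in M1BP RNAi and 90350 and 77640 with ZKSCAN3. Salivary gland markers, mainly glue proteins, summed to 618 and 41.2 CPM in M1BP RNAi and 590 and 818 with ZKSCAN3, against 14.1 to 38.7 in the other genotypes. Their median log2 fold change was 1.32, and 3.90 without replicate 1 of M1BP RNAi. Testis markers summed to 110 CPM in replicate 1 of M1BP RNAi and to 6.27 to 23.8 in the other 7 libraries, and all 20 tested had a negative log2 fold change. betaTub85D, the testis tubulin, read 30.1 CPM in that replicate and 0.146 in the other. The median of the testis list was -3.88 with that replicate and 0.71 without it. Other medians moved as well, since proteasome subunits went from -0.25 to -0.09, cytoplasmic ribosomal proteins from 0.21 to 0.06, and hemocyte markers from -0.80 to -0.22. That of all genes went from -0.08 to 0.03. For the genes called lower, both M1BP RNAi libraries lay above both of M1BP RNAi + ZKSCAN3. A call with 2 libraries a group nearly requires this, so it does not show how far the calls rest on replicate 1 of M1BP RNAi.

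Of 17 hemocyte markers tested, none was called by edgeR, 12 were negative and 5 positive, at a median of -0.80. At an unadjusted p under 0.05, 8 were lower and 1 higher, and DESeq2 called 8 lower and 1 higher. Over all genes 8.98% were lower and 8.97% higher at an unadjusted p under 0.05. Hml, hemolectin of the plasmatocytes, read 128 and 126 CPM in M1BP RNAi and 25.3 and 11.6 with ZKSCAN3, with WT at 52.7 and 65.3 (log2 -2.79 ± 0.42, edgeR adjusted p = 0.0694). The crystal cell genes PPO1 and PPO2, which encode prophenoloxidases, read 452 and 256 and 628 and 323 CPM in M1BP RNAi, against 19.5 and 2.46 and 28.3 and 4.09 with ZKSCAN3, with edgeR adjusted p = 0.152 and 0.154. lz, the crystal cell transcription factor, read 1.57 and 2.20 against 0.125 and 0.0712 (log2 -4.25 ± 0.62, edgeR adjusted p = 0.0694). These 4 were singled out after their values were seen. The collagen genes Col4a1 and vkg, which the fat body also expresses and which dominate the list, had positive values of log2 0.80 ± 0.53 and 0.82 ± 0.57, so the summed level was 3120 and 3000 CPM against 2070 and 4080. In these bulk libraries fewer cells of a type and less RNA per cell cannot be told apart, and the part of blood cells in the immune genes above was not tested.

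**Figure D4:**
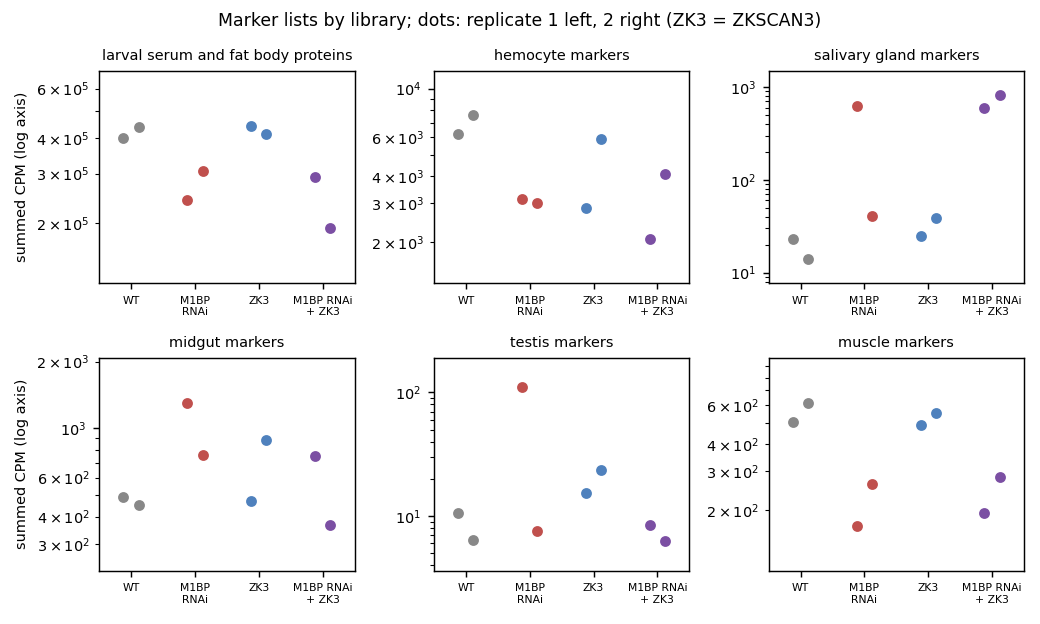
Summed CPM of 6 marker lists in each of the 8 libraries on log axes, replicate 1 left and replicate 2 right. Testis markers stand apart in replicate 1 of M1BP RNAi at 110 CPM, and salivary gland markers are high in that library and in both of M1BP RNAi + ZKSCAN3.

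ZKSCAN3 binding was read from ChIP-seq of HA-tagged ZKSCAN3 in S2 cells, an embryonic cell line with blood cell character, so it is a readout of another cell type. One of the ZKSCAN3 ChIP samples carries a genotype label naming ZKSCAN4, against its title and cell line, and the merged peak list was used as titled. A peak lay within 500 bp of the annotated start of 19 of the 33 called genes (57.6%), or of 17 of 31 (54.8%, 95% Wilson interval 37.8% to 70.8%, counting error only) when genes with shared counts and start were taken once, against 63.4% of all genes tested. Taken once, 12 of 18 genes called lower (66.7%) and 5 of 13 called higher (38.5%) had one. With the peaks of ZKSCAN4, a related factor assayed in the same way, the share was 51.5% of the 33 called genes against 41.2% of all genes. No peak lay at the start of Drsl5, BomS2, BaraA1, BaraA2 or CG31326, while Tl, GstD9, Pisd, nst and Tina-1 had one. PolZ2, Ifrd1, CG3448, Ada2b, CG6293, eIF6 and CG42365 had a peak, and dnr1, CG6839 and Cyp12c1 had none.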

How the data were processed

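The authors aligned paired-end reads uniquely to dm6 with Subread and deposited raw counts of 17494 FlyBase genes, made with featureCounts 1.6.1 over exons with no strand setting; mates were counted separately, and a read on several genes was added to each of them. Peaks were called by the authors with MACS2 at an irreproducible discovery rate of 1% over replicates, and the deposited score of each peak is not defined in the sources used here. The authors' tables of log2 fold changes and adjusted p-values against WT, and the female counts, were not used here.

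Symbols came from the reference tables for 17358 genes, 1 from RefSeq and 91 by identical span, and 44 had none. Counts of the 8 male libraries were fitted by the quasi-likelihood method of edgeR 4.0.16 under R 4.3.3 (filterByExpr, then TMM scaling, 1 mean per genotype, Benjamini-Hochberg adjustment over 11723 genes, threshold 0.05). The common biological coefficient of variation was 0.462. The study itself used DESeq2 at 0.001; DESeq2 1.42.0, other scaling, no filter, the 4 libraries alone, 0.001, a minimum log2 fold change of 1, blocking on the replicate number and dropping libraries 1 at a time were alternatives, with other peak windows. The fit was also run on simulated counts. Their spread between libraries was set below that of the data, so that run cannot show how reliable the calls are here.

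Named genes were the up to 12 largest changes a direction among those called with no overlap and at least 10 CPM in the higher group, M1BP and the transgene-tied genes, the Atg genes, and per list the up to 4 called members of largest change or the up to 2 of highest level; other names are stated as exceptions. The comparison and lists were chosen with earlier results of these data known. Older symbols in the lists were matched through RefSeq synonyms. Motifs were read from the RefSeq Release 6 genome.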

Additional observations from a re-analysis of the deposited data

Results flagged for a closer look

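The change made by ZKSCAN3 differed between knockdown and control fat body for 3 genes by the test of the interaction in edgeR. The difference was log2 5.79 for Drsl5, log2 -2.37 for PolZ2 and log2 -3.85 for Hsp26. For Drsl5 the libraries of ZKSCAN3 alone held 26 and 21 counts and those of WT 27 and 29. That fold was log2 -0.21 ± 0.28 (edgeR adjusted p = 0.932). For PolZ2 and Hsp26 the libraries of ZKSCAN3 alone lay above WT, while those of M1BP RNAi + ZKSCAN3 lay below M1BP RNAi. ZKSCAN3 alone against WT gave 0 genes past the threshold. Leaving out 1 library at a time gave 0 to 199 such genes.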

How the results depend on the processing

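With 2 libraries a genotype the calls depended on the setting. edgeR with DESeq2's size factors called 9 genes higher and 13 lower and 6 in the interaction, and without the filter on low counts 34, 38 and 17. DESeq2 on 8 libraries called 627, 513 and 746, and on the 4 libraries compared 325 higher and 225 lower, where edgeR called 0 and 0. At a threshold of 0.001 edgeR called 0, 0 and 0, and a minimum log2 fold change of 1 left the counts at 13, 20 and 3. Leaving out 1 library at a time gave 1 to 197 genes higher, 0 to 115 lower and 0 to 199 in the interaction, with the lone library assumed to vary like the other groups. Of the 33 genes called, 33 were also called by each DESeq2 fit, 32 without the filter and 22 with DESeq2's size factors.

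Whether same-numbered libraries were prepared together is not known, since the labels only number the replicates. Over the genotype pairs they correlated from -0.217 (M1BP RNAi with ZKSCAN3) to 0.444 (WT with M1BP RNAi). The value was 0.209 for M1BP RNAi with M1BP RNAi + ZKSCAN3. Such values differ in sign between pairs and cannot show or exclude a pairing. A fit with the replicate block called 10 genes higher, 12 lower and 0 in the interaction, 18 of the 33 among them.

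The share of called genes with a ZKSCAN3 peak was 36.4% with the higher-scoring peaks (45% of all genes) and 30.3% with at least 50% of the peak in the window (34.4%). Taking genes with shared counts and start once, or the peaks of ZKSCAN4, both chosen after seeing the data, gave 54.8% (63.4%) and 51.5% (41.2%). When 1 library was left out, Gapdh1 ranged from log2 -0.15 to 0.39, Pepck1 from -0.84 to 0.51 with 0.41 without replicate 2 of M1BP RNAi + ZKSCAN3, and betaTub85D from -5.46 to 2.12. The cause was not tested. Among the other values of named genes under the alternatives, 670 kept direction and side of the threshold, 49 passed it and 215 no longer passed it.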
